A study of Mus musculus with 4 samples.

Results

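The 9 genes described here encode the transcription factors through which the circadian clock acts on its output genes and on its own secondary loop. They were taken by symbol, as the rows named Dbp, Tef, Hlf, Nfil3, Nr1d1, Nr1d2, Rora, Bhlhe40 and Bhlhe41, and all 9 were found among the 17485 genes of the deposited table. The hearts came from Klf9 knockout mice (Klf9 KO, 2 libraries) and from wild-type mice (WT, 2 libraries). All were labelled male and 8 weeks old, and the labels call their feeding random. Total RNA of the heart tissue was sequenced. Klf9 encodes a Krüppel-like zinc finger factor, and the study asked how its loss bears on cardiac mitochondria. The labels give neither the strain nor the targeted part of Klf9, the hour of collection or whether each library is a separate animal. The p-values therefore measure the spread between libraries only, and this spread may be technical.

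In the clock of mammals, CLOCK or NPAS2 pairs with BMAL1 (Arntl) on E-boxes and drives its own repressors, the PER and CRY proteins. E-boxes also drive several of the output factors. DBP, TEF and HLF, the PAR-bZIP family, activate genes through D-boxes, and NFIL3 represses through the same element. REV-ERB alpha and beta (Nr1d1, Nr1d2) repress Arntl, Npas2 and Nfil3 through ROR elements, where the ROR receptors, among them RORA, activate. BHLHE40 and BHLHE41 (DEC1, DEC2) bind E-boxes and repress. In the mouse heart several of these factors are rhythmic, with Dbp and Nr1d1 among the genes of large daily swing. For such genes a single collection shows a single point of a cycle.

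In Klf9 KO hearts Hlf and Nfil3 were higher and Nr1d1 and Bhlhe41 lower than in WT hearts, while Dbp, Tef, Nr1d2, Rora and Bhlhe40 did not pass the test. That is 2 of 9 members higher, where 27.7% of all 12135 genes tested were higher, and 2 of 9 lower, where 17.0% of all genes were lower. Together 44.4% of the members were called, against 44.7% of all genes tested, so the share of members called lay at the background of the comparison. The number of members called changed with the library left out, and so did the number called over all genes tested, as given below. A gene was called when limma's moderated test on log2(value + 1) gave a Benjamini-Hochberg adjusted p below 0.05 over all genes tested. The median log2 fold change of the members was -0.27, and that of all genes tested was 0.12.

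The promoters of the 4 called members are shown so that the elements named above, and the GC box that Krüppel-like factors are known to bind, can be read in them. Each is the stretch of 250 bases before the RefSeq transcription start (GRCm38.p6), 5′ to 3′ on the strand of the gene, in lower case with every match to a searched motif in capitals. Hlf lies at chr11:90390918-90391167 on the minus strand, Nfil3 at chr13:52981040-52981289 on the minus strand, Nr1d1 at chr11:98775378-98775627 on the minus strand and Bhlhe41 at chr6:145865421-145865670 on the minus strand.
Hlf: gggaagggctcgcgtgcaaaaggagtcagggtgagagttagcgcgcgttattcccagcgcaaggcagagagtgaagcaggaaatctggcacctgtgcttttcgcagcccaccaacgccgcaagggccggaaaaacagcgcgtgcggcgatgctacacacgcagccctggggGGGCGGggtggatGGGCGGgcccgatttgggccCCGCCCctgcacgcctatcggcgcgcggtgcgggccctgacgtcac
Nfil3: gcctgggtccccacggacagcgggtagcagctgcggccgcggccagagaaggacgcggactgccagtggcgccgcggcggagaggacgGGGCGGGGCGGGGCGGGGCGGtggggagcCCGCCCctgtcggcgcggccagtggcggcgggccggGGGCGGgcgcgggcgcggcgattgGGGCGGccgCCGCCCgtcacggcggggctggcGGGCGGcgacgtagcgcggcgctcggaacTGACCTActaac
Nr1d1: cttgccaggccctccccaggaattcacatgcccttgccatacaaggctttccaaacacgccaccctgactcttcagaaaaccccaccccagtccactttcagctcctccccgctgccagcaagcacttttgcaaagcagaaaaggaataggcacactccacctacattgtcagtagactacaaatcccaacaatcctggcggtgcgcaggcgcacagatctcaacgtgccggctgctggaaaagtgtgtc
Bhlhe41: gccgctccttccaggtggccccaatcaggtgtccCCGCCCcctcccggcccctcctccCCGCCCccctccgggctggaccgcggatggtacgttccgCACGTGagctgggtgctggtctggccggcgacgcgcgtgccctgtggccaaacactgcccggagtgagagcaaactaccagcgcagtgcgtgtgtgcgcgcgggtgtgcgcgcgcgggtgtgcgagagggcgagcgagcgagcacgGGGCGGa

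Capitals mark the E-box CACGTG, the ROR element core TAGGTCA or TGGGTCA and the GC box GGGCGG, each searched on both strands. The D-box was searched as TTATGTAA or TTACGTAA and had no match in any of the 9 promoters found for 8 of the members (Tef has 2, Bhlhe40 is not in the table). Hlf held 3 GC boxes and Nfil3 held 9, of which 4 overlap in 1 run. Nfil3 also held a ROR element core on the opposite strand, from 12 to 6 bases before the start. Bhlhe41 held 1 E-box and 3 GC boxes. The Nr1d1 and Rora windows held no match to any of the 4 motifs. Among the other members Dbp held 1 GC box, Nr1d2 held 3, and each Tef promoter held 1 E-box and 1 GC box. Of all 32851 promoters in the table, 32.7% held a GC box, 6.02% an E-box, 5.38% a ROR element core and 0.931% a D-box. The share of G and C in the member windows was 54.8% to 81.6%, against a median of 52.4% in all promoters. A match describes letters only.

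Klf9 itself stood at 2.66 and 1.99 in Klf9 KO hearts, against 74.88 and 58.78 in WT hearts, so both knockout libraries carried the direction of their label. The deposited table holds ratios between libraries, and the value of each library was recovered from them on a scale with an assumed step and no known unit. Levels of different genes are therefore not set against each other, and a ratio of genes or a sum over genes is read only between libraries. Summed over all genes, the values came to 409359 and 418974 in Klf9 KO and to 426032 and 489534 in WT, and depth is unknown. The library labelled Klf9 KO replicate 2 went against its male label, since all 4 Y-linked genes read (Kdm5d, Ddx3y, Uty and Eif2s3y) were lowest there. Kdm5d stood at 4.01 in Klf9 KO replicate 1 and at 0.01, the smallest step of the values, which may stand for 0, in Klf9 KO replicate 2, against 3.42 and 3.97 in WT, and each member is therefore also given without that library. The heart muscle markers Myh6, Tnnt2, Actc1, Ryr2 and Tnni3 were high in all 4 libraries, while other values moved with the genotype. The slow troponin gene Tnni1 stood at 655.92 and 993.63 in Klf9 KO and at 0.16 and 0.01 in WT. Esr1 stood at 0.09 and 0.03 in Klf9 KO and at 3325.85 and 2725.61 in WT. The design cannot tell these differences apart from the loss of Klf9.

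**Figure D1:**
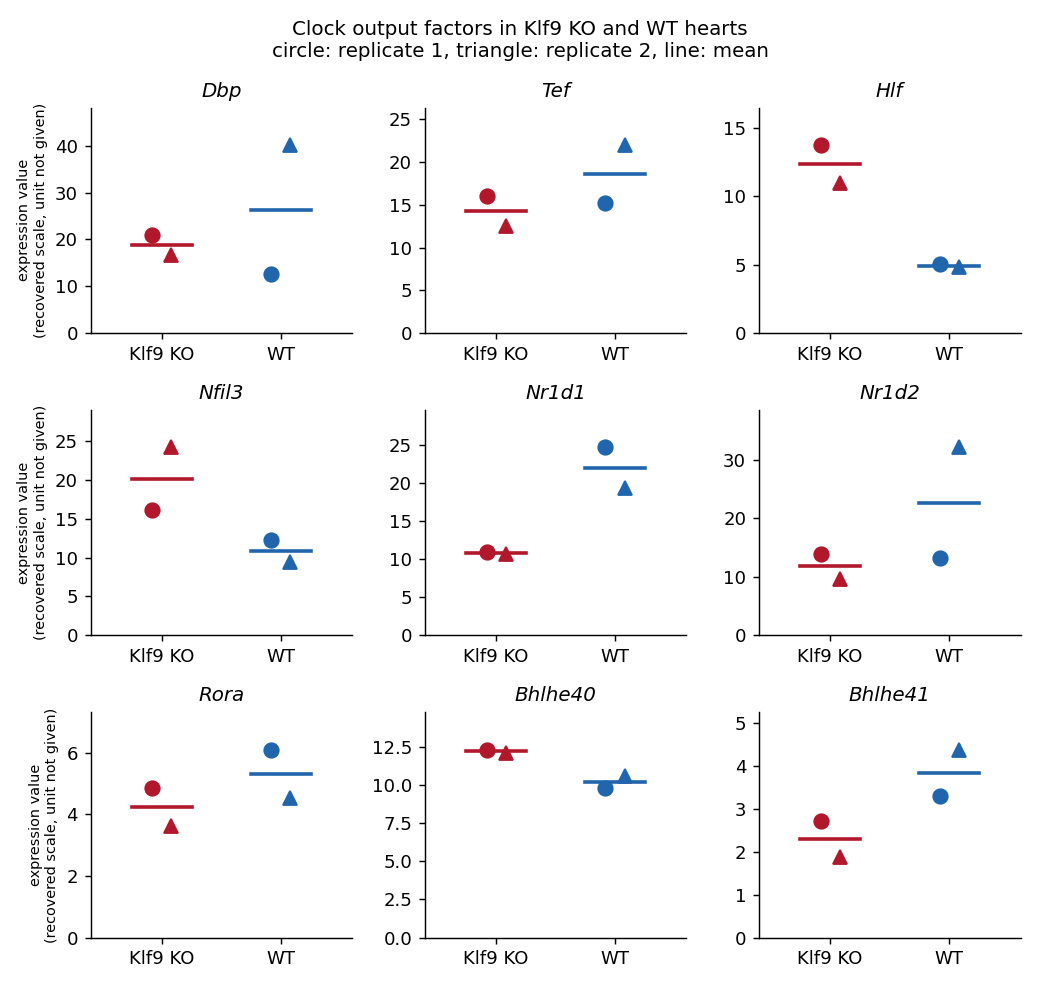
Expression value of each member (y axis, recovered scale with no unit given, from 0) in the Klf9 KO (left, red) and WT (right, blue) libraries, with circles for replicate 1, triangles for replicate 2 and lines for group means. The groups are apart for Hlf, Nfil3, Nr1d1, Bhlhe40 and Bhlhe41, and the WT triangle stands far above the WT circle for Dbp and Nr1d2.

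Among the PAR-bZIP activators, Hlf was the member that passed. Hlf stood at 13.76 and 10.97 in Klf9 KO hearts, against 5.04 and 4.85 in WT hearts. Both knockout libraries lay above both WT libraries, with means of 12.4 ± 1.97 in Klf9 KO and 4.95 ± 0.134 in WT (SD, n = 2 each). The log2 fold change was 1.16 ± 0.18 (SE; limma adjusted p = 0.00101), and 1.31 ± 0.33 without Klf9 KO replicate 2 (limma adjusted p = 0.000538). In the authors' deposited table the log2 ratios of its 4 pairs of libraries ran between 1.12 and 1.50.

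Dbp, the best-known rhythmic member of the family, stood at 21.01 and 16.71 in Klf9 KO hearts, against 12.56 and 40.15 in WT hearts. The knockout libraries lay between the WT libraries. The log2 fold change was -0.26 ± 0.44 (SE; limma adjusted p = 0.666), with a 95% interval of -1.28 to 0.77. The choice of WT library set its sign: it was -1.06 without WT replicate 1 and 0.54 without WT replicate 2. Without Klf9 KO replicate 2 it was -0.10 ± 0.37 (limma adjusted p = 0.889). Its 4 pair ratios in the authors' deposited table ran between -1.26 and 0.74, with 2 above 0 and 2 below.

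Tef stood at 16.07 and 12.58 in Klf9 KO hearts, against 15.26 and 21.98 in WT hearts. The groups overlapped, since Klf9 KO replicate 1 exceeded WT replicate 1. The log2 fold change was -0.34 ± 0.22 (SE, limma adjusted p = 0.234), and -0.59 without WT replicate 1. It was -0.09 without WT replicate 2 and -0.18 without Klf9 KO replicate 2. The log2 ratio of Hlf to Dbp within a library was -0.61 in each Klf9 KO library, against -1.32 and -3.05 in the WT libraries. The difference in this ratio was not tested.

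Nfil3, the repressor of the D-box, stood at 16.15 and 24.16 in Klf9 KO hearts, against 12.28 and 9.39 in WT hearts. The groups did not overlap, with means of 20.2 ± 5.66 in Klf9 KO and 10.8 ± 2.04 in WT (SD, n = 2 each). The log2 fold change was 0.82 ± 0.23 (SE; limma adjusted p = 0.0184). The call was lost without Klf9 KO replicate 2, where the log2 fold change was 0.55. Leaving out that library also widened the SE of Nfil3, as it did for Hlf, Nr1d1 and Bhlhe40. Set against the geometric mean of Dbp, Tef and Hlf, the log2 ratio of Nfil3 was -0.05 and 0.87 in Klf9 KO, against 0.31 and -0.79 in WT. These ratios overlapped between the groups.

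Of the REV-ERB repressors, Nr1d1 fell. Nr1d1 stood at 11.01 and 10.77 in Klf9 KO hearts, against 24.73 and 19.44 in WT hearts, a mean that was 0.493 times that of WT. The knockout libraries were close to each other and both lay below both WT libraries. The log2 fold change was -0.95 ± 0.19 (SE; limma adjusted p = 0.00368), and -0.93 ± 0.36 without Klf9 KO replicate 2 (limma adjusted p = 0.0403). In the authors' deposited table its 4 pair ratios ran between -1.20 and -0.82.

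The exons of Nr1d1 overlap those of Thra, the thyroid hormone receptor alpha gene, on the opposite strand. In GENCODE M21, 263 of the 3077 exon bases of Nr1d1 (8.55%) are also exon bases of Thra. Thra moved the other way, at 99.01 and 113.01 in Klf9 KO and at 34.8 and 24.21 in WT (log2 fold change 1.83 ± 0.22, limma adjusted p = 0.000296). Whether reads were counted by strand is not given, so reads of the shared bases cannot be assigned. Dbp shares 539 of 2993 exon bases (18.0%) with Sphk2, which stood at 11.31 and 12.99 in Klf9 KO and at 14.9 and 10.89 in WT. Bhlhe41 shares 1280 of 6720 (19.0%) with an unclassified transcript, while Hlf, Nfil3 and Nr1d2 share none.

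Nr1d2 stood at 13.98 and 9.58 in Klf9 KO hearts, against 13.27 and 32.12 in WT hearts. Klf9 KO replicate 1 and WT replicate 1 were close together, and WT replicate 2 stood apart. The log2 fold change was -0.79 ± 0.36 (SE; limma adjusted p = 0.102), with a 95% interval of -1.59 to 0.02. It was -1.40 without WT replicate 1 and -0.18 without WT replicate 2. Leaving out Klf9 KO replicate 1 gave -1.04, and leaving out Klf9 KO replicate 2 gave -0.54. With 1 Klf9 KO library left, the test took little account of the wide WT spread of Nr1d2, so its outcome is not read.

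Rora, which encodes the activator at ROR elements, stood at 4.85 and 3.63 in Klf9 KO hearts, against 6.09 and 4.52 in WT hearts. The groups overlapped, and the log2 fold change was -0.27 ± 0.20 (SE; limma adjusted p = 0.311). It was -0.08 without WT replicate 1, -0.45 without WT replicate 2 and -0.10 without Klf9 KO replicate 2, none of which passed. Its paralog Rorb was at 0.42 or less in every library and was not tested. Within a library, the log2 ratio of Rora to the geometric mean of Nr1d1 and Nr1d2 was -1.36 and -1.48 in Klf9 KO, against -1.57 and -2.47 in WT.

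Of the DEC repressors, Bhlhe41 was called lower and Bhlhe40 did not pass. Bhlhe41 stood at 2.72 and 1.89 in Klf9 KO hearts, against 3.31 and 4.38 in WT hearts. The groups did not overlap, and the log2 fold change of -0.55 ± 0.20 (SE) lay at the edge of the threshold (limma adjusted p = 0.0496). The call was lost without WT replicate 2 (-0.39, limma adjusted p = 0.101), without Klf9 KO replicate 1 (-0.74, limma adjusted p = 0.0622) and without Klf9 KO replicate 2 (-0.37, limma adjusted p = 0.433). It was also lost with smaller pseudocounts, which give larger fold changes.

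Bhlhe40 stood at 12.3 and 12.09 in Klf9 KO hearts, against 9.81 and 10.58 in WT hearts. Both knockout libraries lay above both WT libraries, by little, and the log2 fold change of 0.24 ± 0.17 (SE) did not pass (limma adjusted p = 0.275). Its 95% interval of -0.14 to 0.62 leaves room for a change in either direction, and without Klf9 KO replicate 2 the value was 0.25 ± 0.34 (SE; limma adjusted p = 0.657). The log2 ratio of Bhlhe40 to Bhlhe41 within a library was 2.18 and 2.68 in Klf9 KO, against 1.57 and 1.27 in WT. In all, the groups did not overlap for 5 of 9 members (55.6%), where 75.4% of all genes tested had groups that did not overlap.

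**Figure D2:**
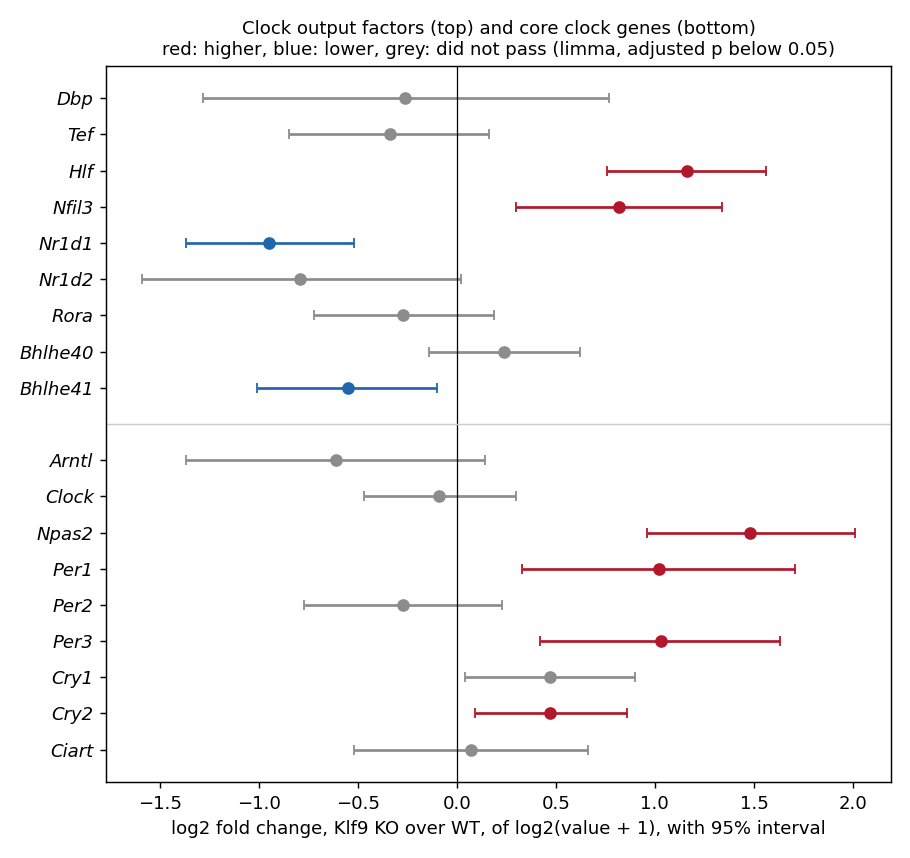
Log2 fold change of Klf9 KO over WT on the log2(value + 1) scale (x axis, bars are 95% intervals from limma) for the 9 members above the grey line and 9 core clock genes below it, in red where higher, blue where lower and grey where the test was not passed. Hlf, Nfil3, Npas2, Per1, Per3 and Cry2 are red, and Nr1d1 and Bhlhe41 are blue.

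The WT libraries differed from each other in Dbp, Tef, Nr1d2 and Rora by more than the genotypes did. On the log2(value + 1) scale, WT replicate 2 exceeded WT replicate 1 by 1.60 in Dbp and by 1.21 in Nr1d2, where the median absolute difference over all genes tested was 0.26. Only 0.0989% of genes tested differed more than Dbp between the WT libraries, and 0.429% differed more than Nr1d2. Among core clock genes, Arntl differed in the other direction, by -1.22, Npas2 by -0.69 and Per1 by -0.56, while Ciart, Per3 and Per2 differed by 0.80, 0.67 and 0.60. In WT, then, Dbp, Nr1d2, Per2, Per3 and Ciart were high in replicate 2 and Arntl, Npas2 and Per1 in replicate 1. Of the other members, Tef (0.50), Bhlhe41 (0.32) and Bhlhe40 (0.10) were higher in WT replicate 2. Nr1d1 (-0.33), Nfil3 (-0.35), Rora (-0.36) and Hlf (-0.05) were lower there. Neither the Per genes nor Nr1d1 and Nr1d2 were all high in the same library.

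Between the Klf9 KO libraries the spread was narrower over all genes, with a median absolute difference of 0.13. Replicate 2 exceeded replicate 1 by 0.55 in Nfil3, and 1.85% of genes tested differed more. It was lower by 0.50 in Nr1d2 (-0.50, with 2.67% of genes differing more), and Dbp, Tef and Hlf differed by -0.31, -0.33 and -0.30. Per1 differed by -0.89 and Per3 by -0.59, while Arntl and Npas2 differed by 0.09 and -0.01. Whether the libraries of a group were collected at the same hour is not given, and its part in these values was not tested.

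**Figure D3:**
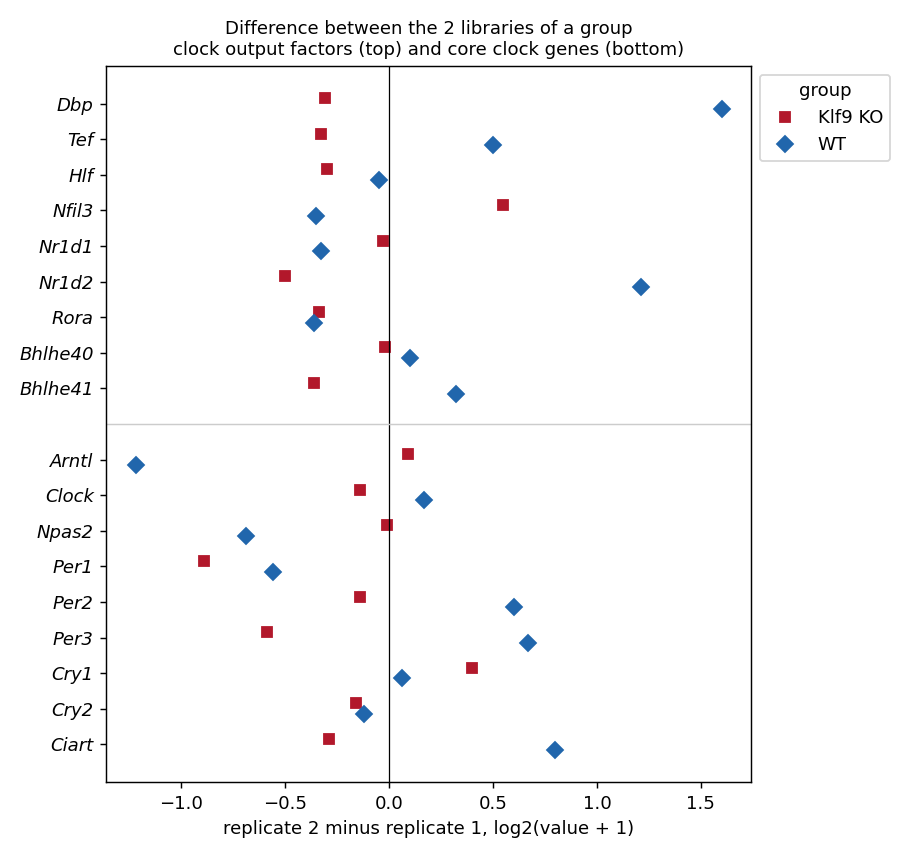
Replicate 2 minus replicate 1 on the log2(value + 1) scale (x axis) in Klf9 KO (red squares) and WT (blue diamonds), for the 9 members above the grey line and 9 core clock genes below it. Dbp at 1.60, Nr1d2 at 1.21 and Arntl at -1.22 are the widest differences, all in WT.

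The core clock was read beside its outputs from a fixed list of 9 genes. Of these, 4 were higher in Klf9 KO, 0 were lower and 5 did not pass, with a median log2 fold change of 0.47. Among all genes tested, 27.7% were higher and 17.0% lower. Npas2, the partner of BMAL1, stood at 6.12 and 6.08 in Klf9 KO hearts, against 2.23 and 1 in WT hearts (log2 fold change 1.48 ± 0.23, limma adjusted p = 0.00113). Per1 stood at 45.18 and 23.99 in Klf9 KO, against 19.34 and 12.8 in WT (1.02 ± 0.30, limma adjusted p = 0.0235), and Per3 at 11.69 and 7.43 in Klf9 KO, against 3.03 and 5.39 in WT (1.03 ± 0.27, limma adjusted p = 0.0132). Cry2, the fourth, was at 0.47 ± 0.17 (limma adjusted p = 0.0484). The Per1 call was lost without WT replicate 1, WT replicate 2 or Klf9 KO replicate 1, where its log2 fold change was 1.30, 0.74 and 0.58. Leaving out either WT library widened its SE to 0.54, so the lost call does not by itself show dependence on that library. The Per3 call was lost without Klf9 KO replicate 1 (0.73). Neither Per1 nor Per3 passed without a filter on low values (limma adjusted p = 0.0903 for Per1 and 0.0623 for Per3). Cry2 lost its call without either Klf9 KO library, after RLE or upper quartile scaling, without a filter, with either smaller pseudocount, without the trend setting and with a replicate block, at limma adjusted p between 0.0503 and 0.387.

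Arntl, a direct target of REV-ERB repression, stood at 3.36 and 3.63 in Klf9 KO, against 9.47 and 3.51 in WT. It did not pass (log2 fold change -0.61 ± 0.33, limma adjusted p = 0.165), and its size rested on WT replicate 1, the higher library: it was -0.01 without WT replicate 1 and -1.22 without WT replicate 2. Clock (-0.09), Per2 (-0.27), Cry1 (0.47) and Ciart (0.07) did not pass either. Ciart was -0.01 after RLE scaling, and Per2 was 0.03 without WT replicate 2 and -0.58 without WT replicate 1. Of the 5 genes listed for ROR elements repressed by REV-ERB (Arntl, Clock, Npas2, Cry1 and Nfil3), Npas2 and Nfil3 were higher and the others did not pass. That is 2 of 5 higher and 0 lower, beside 27.7% higher and 17.0% lower among all genes tested. These calls are not new, since Nfil3 is a member and the others are core clock genes. That list was fixed with earlier results of these data known.

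Other genes of the clock machinery were counted from fixed lists, beside 27.7% higher and 17.0% lower among all genes tested. Of 8 genes for REV-ERB corepressors and turnover, 3 were higher and 0 lower. Siah2, a ubiquitin ligase of REV-ERB alpha, stood at 8.7 and 8.12 in Klf9 KO, against 3.71 and 4.24 in WT, and Tbl1x, a corepressor subunit, at 37.89 and 33.1 in Klf9 KO, against 20.05 and 13.46 in WT. Of 7 tested clock kinases and ubiquitin ligases, 2 were higher, namely Csnk1e (log2 fold change 0.58) and Btrc (0.64), and 0 lower. Both calls were lost without either Klf9 KO library in turn and after RLE scaling. Neither of the 2 tested genes known to depend on PAR-bZIP factors in mouse liver, Por and Alas1, passed.

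Genes known to be clock-controlled in mouse heart were lower in 5 of 7 cases and higher in 1, with a median log2 fold change of -1.76. Over all genes tested, 17.0% were lower and 27.7% higher. Like the other lists, this list was fixed with earlier results of these data known. Bdh1, an enzyme of ketone body use, stood at 0.11 and 0.1 in Klf9 KO, against 87.57 and 96.44 in WT. Klf15, a Krüppel-like factor of cardiac metabolism, stood at 4.47 and 3.42 in Klf9 KO, against 22.38 and 27.64 in WT. Adra1b, an alpha-adrenergic receptor gene, was higher, at 19.44 and 17.27 in Klf9 KO, against 9.93 and 7.71 in WT. Bdh1 was already known from these data to be among the largest decreases when the list was fixed. Of 4 tested genes that are rhythmic in many mouse tissues, Wee1 was higher (10.11 and 11.88 in Klf9 KO, 3.68 and 5.96 in WT), Tsc22d3 was lower (23.12 and 19.2 in Klf9 KO, 35.01 and 36.26 in WT) and Usp2 and Tspan4 did not pass. The Tsc22d3 call was lost without either Klf9 KO library in turn.

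Over all of these clock lists with the members left out, 11 of 37 tested genes were higher and 6 lower, beside 27.7% and 17.0% of all genes tested. Heart tissue holds many cell types, and a change in the number of cells of a type cannot be told apart from a change in RNA per cell. Summed marker values also moved with the genotype. The 3 smooth muscle markers, all called higher, summed to 281.99 and 388.35 in Klf9 KO, against 109.16 and 90.97 in WT. The 4 macrophage markers, of which 3 were called lower and 0 higher, summed to 27.25 and 28.06 in Klf9 KO, against 78.95 and 98.67 in WT. The 5 heart muscle markers (1 lower, 0 higher) summed to 16421.55 and 14778.13 in Klf9 KO, against 16578.16 and 18113.52 in WT. The 3 epicardial markers, all called higher, summed to 20.08 and 18.47 in Klf9 KO, against 4.9 and 6.46 in WT. Of 4 fibroblast markers 2 were higher and 1 lower, and of 4 endothelial markers 2 were higher and 0 lower. Of 3 tested atrial markers 2 were higher (Myl4 and Myl7) and 1 lower (Nppa), and of 3 pericyte markers 0 were higher and 1 lower. Of 3 erythroid markers 1 was higher and 0 lower, with sums of 7363.4 and 5114.29 in Klf9 KO, against 4186.07 and 3775.43 in WT. The single Schwann cell marker tested was higher. Lymphocyte markers summed to 1.87 or less in each library and adipocyte markers to 0.05 or less. The part of these differences in the values of the members was not tested.

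**Figure D4:**
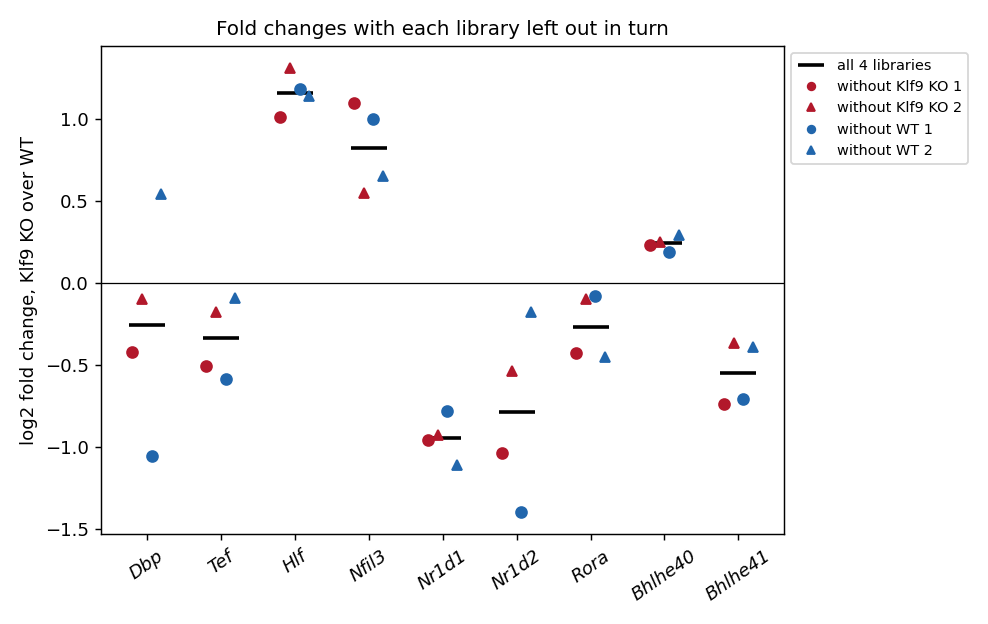
Log2 fold change of Klf9 KO over WT for each member (y axis, log2(value + 1) scale) with all 4 libraries (black bar), without a Klf9 KO library (red) and without a WT library (blue), with circles for replicate 1 and triangles for replicate 2 left out. Dbp lies at -1.06 or at 0.54 depending on the WT library left out, while Hlf stays between 1.01 and 1.31 and Nr1d1 between -1.11 and -0.78.

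All 9 members had a DEGseq q-value below 0.001 in the authors' deposited table, with 3 higher and 6 lower. The authors' deposited table gave such a q-value to 57.6% of the 16254 genes that have one. These include genes too low for the test used here, which all 9 members entered, so the shares are not compared. In the authors' deposited table the pair ratios had a single sign for 5 members, all above 0 for Hlf, Nfil3 and Bhlhe40 and all below 0 for Nr1d1 and Bhlhe41. They had both signs for Dbp, Tef, Nr1d2 and Rora.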

How the data were processed

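RNA sequencing covered 2 Klf9 KO and 2 WT heart libraries, with groups and replicate numbers taken from the sample titles. The authors deposited 1 table of comparisons. Per the file headers, it holds, with a p-value and a rate of false discovery (1 such column exceeds 1, is taken as a score and was not used), a log2 ratio for each pair of a WT and a knockout library, and a log2 ratio with a DEGseq q-value for the groups. Aligner, build, counting and depth are not given in the sources used here.

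Library values were recovered from the 4 ratios of each gene as the smallest whole numbers that give them, read in steps of 0.01 (Python 3.11.15, numpy 2.4.6, pandas 2.3.3). All 17485 genes were resolved. None of 2000 control genes (0%) was resolved after small shifts of the ratios. Each ratio was shifted separately, which breaks the agreement among the 4 ratios, so this outcome was fixed in advance. It does not show that the recovered values are right. A factor that all 4 values of a gene have in common is lost, which leaves ratios intact but makes the level too low. The step is an assumption and the unit is unknown.

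The planned count test could not be used without counts. The stated fallback was limma 3.58.1 (R 4.3.3, trend and robust) on log2(value + 1) of the 12135 genes that reached 1 in at least 2 libraries. A fold change on this scale understates that of low genes. Alternatives were RLE and upper quartile scaling, other filters and pseudocounts, limma without trend or robust settings, each library left out, and a replicate block. The genes named were the 9 members, the core clock, and from each other clock list the called genes of lowest p, at most 2 higher and 2 lower. Klf9, marker, Y-linked and overlapping genes were named as checks, and a few list genes that did not pass were named after their values were seen. A gene of the lists is not reported here. Members and lists were chosen with earlier results of these data known. Promoters are from RefSeq (GRCm38.p6), exon overlaps from GENCODE M21, and figures were drawn with matplotlib 3.10.9.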

Additional observations from a re-analysis of the deposited data

How the results depend on the processing

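Of 117 recomputed member values, 102 kept their direction and their side of the threshold. With the direction kept, 9 no longer passed and 5 newly passed. The sign changed in 1, Dbp without WT replicate 2 (0.54), which also lay past the threshold but is counted by its sign only. Dbp ranged from -1.06 to 0.54 as each library was left out. Members called higher numbered 2 with all libraries, 1 without a filter on low values, and 1 to 3 with a library left out. Members called lower numbered 2, then 1 without a filter, with a pseudocount of 0.1 or 0 or without the trend setting, and 1 to 5 with a library left out, 5 of them without WT replicate 1. Nfil3 did not pass without a filter (limma adjusted p = 0.0625). Over all genes, 3367 were higher and 2061 lower with all libraries, and with a library left out, 1859 to 4327 were higher and 1100 to 3261 lower. In the clock lists 6 to 15 were higher and 5 to 10 lower with a library left out, and 7 were higher without a filter. The sign also changed for Clock (-0.17 to 0.00), Per2 (-0.58 to 0.03) and Ciart (-0.33 to 0.47) as a library was left out, and for Ciart after RLE scaling (-0.01). The cause was not tested. The median log2 fold change of all genes tested was 0.12, or 0.02 after RLE scaling, and the members' calls stayed at 2 higher and 2 lower.

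The replicate numbers do not pair the libraries by any label, and same-numbered libraries did not deviate together (correlation -0.04). With a replicate block, 2 members were higher and 3 lower, the third being Nr1d2 (limma adjusted p = 0.0019), and Arntl also passed (-0.61, limma adjusted p = 0.0133). The SE was 0.23 for Nr1d2 and 0.22 for Arntl with the block, against 0.36 and 0.33 without it, and 0.22 for Hlf and Nr1d1 too. A gene's own spread counted for little in that fit, so these new calls are not read as evidence. Where 1 library is left in a group, the spread comes from the other group and is shared across genes. Without either Klf9 KO library, the SE of Dbp was much like that of Nr1d1, though the WT libraries differed far more in Dbp. Leaving out either one also widened the SE of the called members, so a lost call does not by itself show dependence on that library. Calls from such fits are therefore not read as evidence on a gene. Depth is unknown, so counting error cannot be given.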

Other observations

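For each member, the gene with the most similar values over the 4 libraries was found by the Euclidean distance between centred log2(value + 1) values, with predicted genes left out. With 4 libraries, likeness is a description only. The nearest gene to Tef was Cmbl at a distance of 0.022, to Bhlhe40 Thumpd1 at 0.024, to Bhlhe41 Arhgap5 at 0.034 and to Rora Bcl3 at 0.039. Hlf lay nearest to Rev3l at 0.052, Nr1d1 to Det1 at 0.066 and Nfil3 to Lmf2 at 0.083. Det1 stood at 3.08 and 3 in Klf9 KO hearts, against 8.04 and 6.33 in WT hearts. Dbp and Nr1d2 had no gene as close, with Lst1 at 0.206 and Hist1h4i at 0.187.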
